A study of Mus musculus with 11 samples.

Results

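Endothelial cells (ECs), the cells that line blood vessels, of the mouse cerebral cortex were compared between the juvenile and the adult brain. Cells were kept when they had more than 500 and fewer than 6000 detected genes and under 25% of their unique molecular identifiers (UMIs, each standing for 1 captured RNA molecule) from mitochondrial genes. A kept cell was taken as an EC when its UMIs of Cldn5, a tight junction claudin, Flt1, a VEGF receptor, and Pecam1, an adhesion molecule of EC contacts, summed to at least 3. It was also required to have at most 2 UMIs of the mural cell genes Rgs5 and Vtn and at most 2 of the immune cell genes C1qa, C1qb and Ptprc. By this rule, 8292 of the 24362 kept cells in the 7 juvenile and adult libraries were ECs, 3154 of them juvenile and 5138 adult. The whole series held 50625 kept cells of 54646 barcodes. ECs just inside the limit, with exactly 3 UMIs of the 3 genes, numbered 16, 24, 54 and 41 in the juvenile libraries and 58, 116 and 109 in the adult libraries. Cells just outside it, with 2 such UMIs, numbered 55, 82, 190 and 147 in the juvenile and 100, 203 and 166 in the adult libraries. Of 12 other EC markers, among them Cdh5, Tie1 and Emcn, all 12 were detected in the ECs of each of the 7 libraries. Detection in summed UMIs does not test the label, since all 12 were also detected in the microglia and mural cells of Adult 2. The summed level of these markers, given further below, was higher in ECs than in other cell types. Because the cells were selected on Cldn5, Flt1, Pecam1, Rgs5, Vtn, C1qa, C1qb and Ptprc, no test was made on these genes.

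Both groups were untreated C57BL/6 mice carrying no transgene, at postnatal day 10 (Juvenile, 4 libraries) or 7 to 11 weeks of age (Adult, 3 libraries). Each library pooled cortex of 6 mice, which were stated to be female by default. The tissue was digested with papain and Liberase, depleted of myelin in albumin and of dead cells, and sequenced as 10x Genomics 3′ version 2 libraries. Groups therefore differ in everything that changes between these ages and these cannot be told apart.

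During the first postnatal weeks the cortical vessel network grows by sprouting: tip cells guided by VEGF lead a new branch, and stalk cells behind them divide. The same ECs form the blood-brain barrier, in which tight junctions seal the gaps between cells, uptake carriers supply the brain with glucose, amino acids and iron, efflux pumps return drugs to the blood, and vesicle traffic across the cell is kept low. Wnt/beta-catenin signals from the brain induce this programme, and in the adult vessel most ECs have left the cell cycle.

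The libraries did not weigh equally. ECs were 18.7%, 17.6%, 26.5% and 26.8% of the kept cells in Juvenile 1 to 4, and 19.2%, 58.2% and 59.8% in Adult 1 to 3. In Adult 1, 1108 cells with enough UMIs of the 3 EC genes were left out by the immune cell limit, against 65 to 410 in the other libraries. Juvenile ECs were deeper, with a median of 5120 to 7160 UMIs per cell against 3033 to 3420 in adult ECs. Adult 2 and 3, Juvenile 1 and 2, and Juvenile 3 and 4 differed little within each pair, with a chi-square per degree of freedom over genes of 2.44, 3.44 and 2.81, against 16.2 and 18.7 between Adult 1 and the other adult libraries. Each pair was averaged to 1 unit, so that means ± SD rest on 2 units for each age (n = 2), and each result was also fitted with the pairs summed and without Adult 1. Nothing says that the libraries came from separate animals beyond their pools, so p-values measure the spread between libraries, which may be technical. Unless another fit is named, edgeR SEs and p-values come from the fit that takes all 7 libraries as independent. They do not rest on the 2 units for each age, and can be too small where a pair is near-identical. RNA of Y-linked genes was found in the ECs of Juvenile 3 and 4 (Ddx3y, 415 and 360 UMIs) and in no other of the 7 libraries, apart from 1 Kdm5d UMI in Adult 2, so these 2 pools held male tissue. Between 10 and 31 cell barcodes were shared by any 2 of the libraries, and 0 to 6 of those were ECs in both.

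RNA of other cell types was present in the ECs of both ages. Of 11 marker lists of other types, 4 were higher in every adult library than in every juvenile one (choroid plexus, oligodendrocyte, astrocyte and lymphocyte), 1 was lower (fibroblast) and 6 overlapped. Levels of marker lists, of Ttr and of genes in other cell types are given in CPM, UMIs per 1000000 UMIs of those cells in a library, and the gene levels of ECs further below in CPM of library sizes scaled by TMM, edgeR's correction for RNA composition. Ttr, the secreted carrier protein of the choroid plexus, stood at 75948 to 83011 CPM in adult ECs and at 15603 to 35871 CPM in juvenile ECs, which is 25.6% to 34.0% and 5.19% to 12% of its level in choroid plexus cells of the same library. The summed level of all 10 choroid plexus markers ranged from 79793 to 87118 CPM in adult and from 16144 to 37004 CPM in juvenile ECs. Oligodendrocyte markers ranged from 1180 to 1610 CPM against 61.8 to 114, astrocyte markers from 1389 to 2174 against 459 to 883, and lymphocyte markers from 36.4 to 126 against 2.88 to 23.3. Of the lymphocyte markers, Nkg7 and Ms4a1 were at 0 in Juvenile 1, Cd3e, Cd3d and Nkg7 in Juvenile 2, and Ms4a1 in Juvenile 4, and every choroid plexus, oligodendrocyte, astrocyte and microglial marker was above 0 in each library. Fibroblast markers were the other way round, from 23.4 to 58.9 CPM in adult and from 69.5 to 113 CPM in juvenile ECs. Microglial markers, at 767, 302 and 318 CPM in Adult 1 to 3 and 141 to 325 CPM in juvenile ECs, overlapped between the ages, as did red blood cell, perivascular macrophage, mural cell, neuron and ependyma markers. The 12 EC markers that the rule did not use summed to 16882 to 17767 CPM in adult and 10508 to 13148 CPM in juvenile ECs. In choroid plexus cells, microglia and mural cells of the same libraries, the sums ran from 321 CPM (microglia of Juvenile 4) to 1893 CPM (mural cells of Adult 3). The level of these markers, and not their detection, thus set the ECs apart. For every gene below, the level that choroid plexus RNA would add at the Ttr ratio was computed as a percent of the EC level, and it is given where it is large. The cells taken as choroid plexus also held oligodendrocyte RNA, with those markers at 1369, 9346.5 and 10076 CPM in Adult 1 to 3. A percent computed for a gene that oligodendrocytes express can thus include their RNA, and the 2 sources were not separated.

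**Figure D1:**
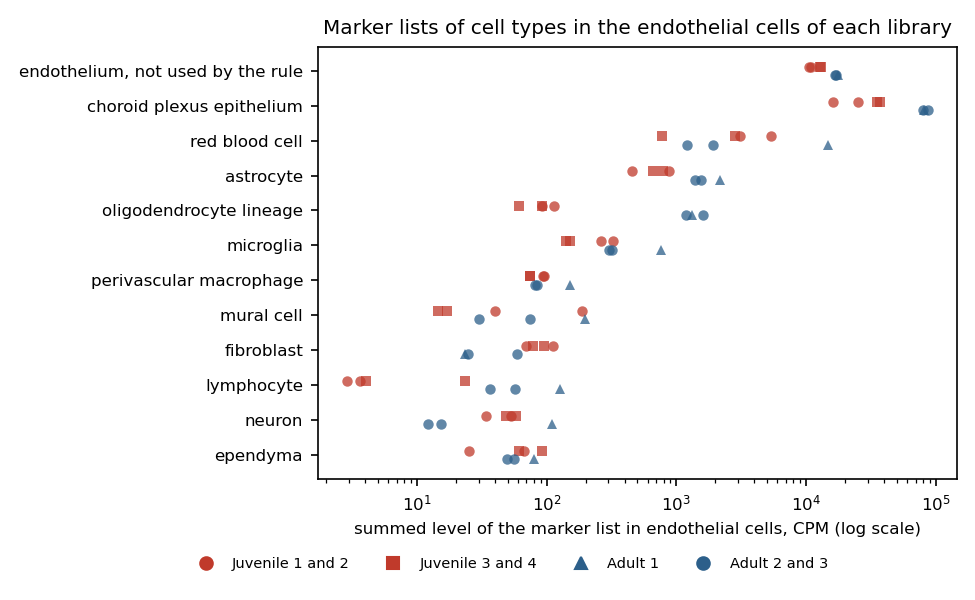
Summed level of marker genes of each cell type in the ECs of each library, in CPM on a log axis, with 1 point per library, the age by colour and the near-identical pairs by shape. Choroid plexus markers reach 79793 to 87118 CPM in the adult libraries against 16144 to 37004 CPM in the juvenile libraries, and fibroblast markers are the one list whose juvenile libraries all lie above the adult ones.

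Across all genes, the ECs of the 2 ages differed widely. Of 13271 genes tested, 2757 were higher in juvenile ECs (20.8%) and 2665 lower (20.1%), together 40.9%, at an adjusted p under 0.05 (edgeR quasi-likelihood test on UMIs summed over ECs per library, Benjamini-Hochberg adjustment over all genes). A call was said to hold when it was also made, in the same direction, without Adult 1 and with near-identical libraries summed. With the pairs summed 2440 genes were called, and 1258 higher (9.48%) and 1127 lower (8.49%) held in all 3 fits, together 18.0%. The libraries of the 2 ages did not overlap in 6365 genes (48.0%). The median log2 fold change (juvenile minus adult) of all genes was -0.03, so that gene groups are read below against a background near 0. Gene symbols are those of the deposited tables, each value is a level in CPM of the 4 juvenile libraries in order of replicate and then of the 3 adult libraries, and a log2 fold change is juvenile minus adult, with its SE for the genes described in full. A gene is said to have risen or fallen when it was called higher or lower by the edgeR test, and the size that follows is on the log2 scale. A sum over ECs does not separate more cells with a transcript from more transcript per cell. Shares of cells are added for some genes as a description. At a fixed depth a share follows the mean level, so it does not separate the 2 either.

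**Figure D2:**
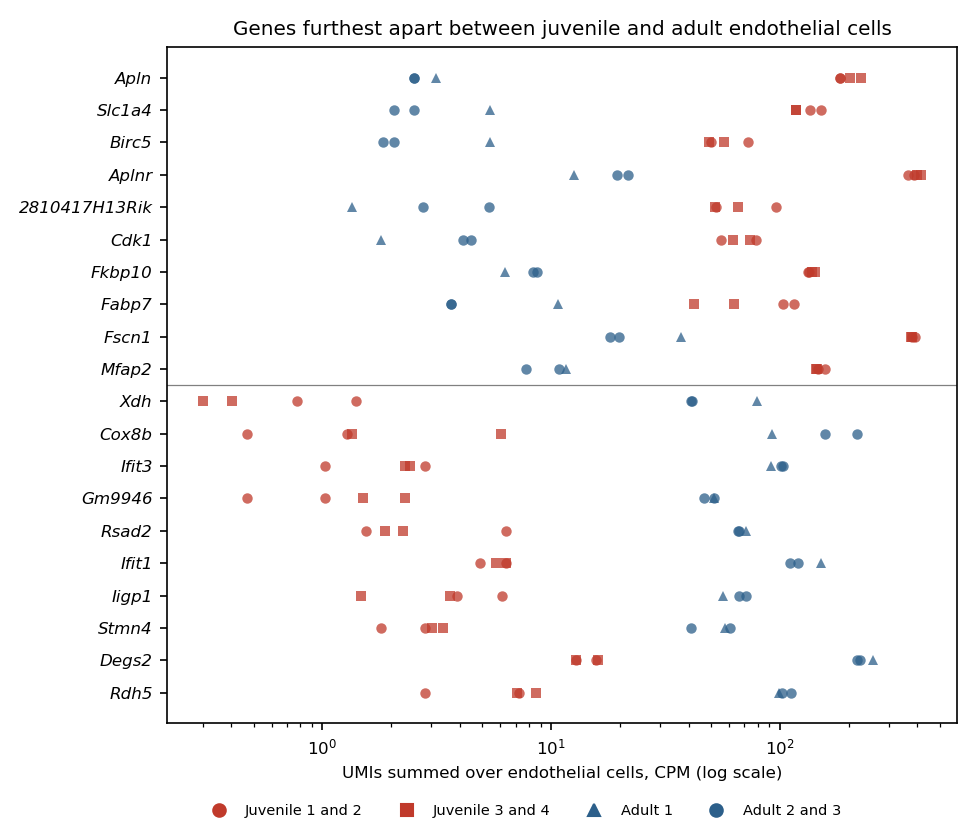
Levels of the 10 genes with the largest rise and the 10 with the largest fall in juvenile ECs, by the rule for named genes, in CPM on a log axis, with 1 point per library. For each of these 20 genes the 4 juvenile libraries lie on one side of the 3 adult libraries, a separation that the choice of these genes required.

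Cell cycle genes were higher in juvenile ECs almost without exception. Of the 39 tested, which run from licensing of DNA replication (Mcm2 to Mcm7) to mitosis, 36 rose (also 36 by DESeq2's Wald test) and all 36 held, with a median log2 fold change of 3.05 (all genes, 20.8% higher and a median of -0.03). Cdk1, the kinase that starts mitosis, was at 79, 55.6, 74.4 and 62.6 CPM in the juvenile and 1.8, 4.46 and 4.13 CPM in the adult libraries (67.9 ± 0.83 against 3.05 ± 1.77, SD, n = 2), a log2 fold change of 4.11 ± 0.21 (edgeR, adjusted p = 5.48e-07). The lowest juvenile library stood far above the highest adult one. Birc5, which encodes the chromosome passenger protein survivin, was at 72.5, 50.2, 57.2 and 49.1 CPM against 5.39, 2.06 and 1.83 CPM, a log2 fold change of 4.55 ± 0.29 (edgeR, adjusted p = 4.93e-06). Ccnb2, a mitotic cyclin, was at 54.4, 33.5, 31.3 and 31.1 CPM against 0.449, 0.915 and 1.26 CPM, with a log2 fold change of 5.18 ± 0.33 (edgeR, adjusted p = 3.84e-06), and was highest in Juvenile 1. 2810417H13Rik, also named Pclaf, whose protein binds the replication clamp PCNA, was at 96.6, 52.5, 65.6 and 52.1 CPM against 1.35, 5.38 and 2.75 CPM, a log2 fold change of 4.17 ± 0.39 (edgeR, adjusted p = 0.000126). Of the replication genes, Mcm6 rose by 1.02, Mcm5 by 2.34 and Tyms, thymidylate synthase, by 1.96 on the log2 scale. Mki67, the proliferation antigen, rose by 4.26 and Plk1, a mitotic kinase, by 5.27. The 3 genes not called, Mcm4, Pcna and Ccne2, had log2 fold changes of 0.42 ± 0.18, 0.22 ± 0.14 and 0.04 ± 0.33. Without Adult 1 the list stood at 36 of 39 higher, and without Juvenile 3 and 4 at 37 of 39. When the ECs with at least 2 UMIs of the list were left out, a step that uses the same genes, 1 of the 11 genes still tested was higher and 1 lower.

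The 5′ flanks of 2 mitotic genes are shown for a pair of short elements known to act together in genes switched on before mitosis, the CCAAT box, bound by NF-Y, and the cell cycle homology region (CHR). In the RefSeq sequences of GRCm38.p6, capitals mark CCAAT (or its reverse complement ATTGG), the CHR letters TTTGAA or TTCGAA and the E2F letters TTTCCCGC, TTTGGCGC or TTTCGCGC, each read on both strands. The 150 bases before the start site are printed 5′ to 3′ in the direction of transcription for Cdk1 (chr10:69352913-69353062, minus strand) and Ccnb2 (chr9:70421555-70421704, minus strand).
Cdk1: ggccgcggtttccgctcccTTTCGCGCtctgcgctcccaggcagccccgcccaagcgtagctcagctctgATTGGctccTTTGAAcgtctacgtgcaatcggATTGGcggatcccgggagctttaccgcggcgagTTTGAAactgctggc
Ccnb2: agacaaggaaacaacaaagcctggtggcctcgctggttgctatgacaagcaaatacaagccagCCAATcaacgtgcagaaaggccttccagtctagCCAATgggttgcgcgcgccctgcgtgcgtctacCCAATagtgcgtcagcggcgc
Cdk1 has CCAAT letters, CHR letters and an E2F match in this window, and Ccnb2 has 3 CCAAT boxes and no CHR match. Birc5 has a RefSeq entry and no match to any of these letters in its 150 bases. In the longer window from 250 bases before to 50 after the start, 31 of the 36 cell cycle genes that rose had an entry. CCAAT was found in 26 of them (83.9%, against 41.1% of all 27025 genes), CHR letters in 20 (64.5% against 21.7%), both in 19 (61.3% against 8.61%) and an E2F match in 5 (16.1% against 2.12%). A match is a description of the letters, and binding was not measured.

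The share of single ECs with cell cycle transcripts was also higher in each juvenile library. After each cell was thinned to 1500 UMIs, leaving out 5, 4, 12 and 24 juvenile and 58, 93 and 136 adult ECs that were shallower, ECs with at least 2 UMIs of the list were 26.6%, 20.4%, 15.2% and 14.3% of juvenile and 5.80%, 6.5% and 7.58% of adult ECs. The 2 ages did not overlap, and Juvenile 1 and 2 were above Juvenile 3 and 4. The means differed by 12.5 percentage points (exact permutation test over libraries, two-sided, p = 0.0571, the smallest that 4 against 3 can give). With near-identical libraries averaged, the difference was 12.7 points and the smallest possible p was 0.333, which was reached (exact permutation test). Unthinned, the shares were 74.5%, 70.8%, 58.0% and 51.5% of juvenile and 23.3%, 27.1% and 25.4% of adult ECs. Choroid plexus cells, epithelial cells that seldom divide and whose median depth was 7287 to 8817 UMIs in juvenile and 2158 to 2570 UMIs in adult libraries, gave 9.49%, 3.45%, 5.45% and 3.90% in juvenile and 7.07%, 3.70% and 2.37% in adult libraries. The share of Adult 1 ECs was below that of its choroid plexus cells and is read as background, while the other 6 libraries had more such ECs than choroid plexus cells.

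At least 2 UMIs of 13 mitosis genes, a narrower set chosen after the values were seen, was found in 9.48%, 4.94%, 5.13% and 4.09% of juvenile ECs. In adult ECs it was found in 0 of 552 thinned cells of Adult 1, which allows a share of up to 0.543% at 3 counts (upper end of the exact 95% interval 0.666%), and in 0.0949% and 0.183% of Adult 2 and 3 (exact 95% binomial intervals 0.0115% to 0.342% and 0.0498% to 0.467%, covering counting error only). Choroid plexus cells gave 3.16%, 1.38%, 0.848% and 1.03% in juvenile and 1.29%, 0.741% and 0.296% in adult libraries. By these shares, every juvenile library was above its own choroid plexus level and every adult library below it. The choroid plexus shares rest on 5, 2, 7 and 9 cells in the juvenile and 4, 3 and 1 in the adult libraries. Exact 95% intervals of ECs and choroid plexus cells overlapped in Juvenile 1 and 2 and in each adult library, so the split is not shown there.

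**Figure D3:**
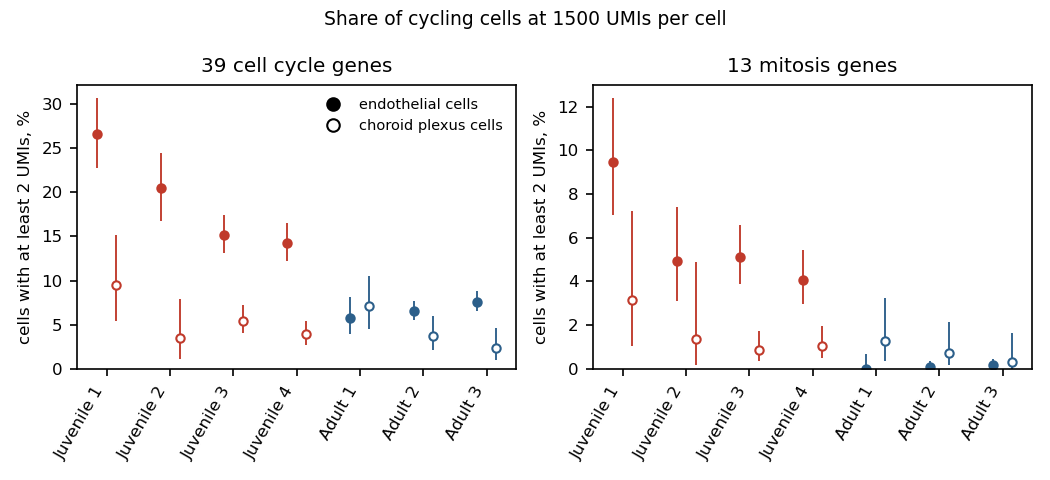
Percent of ECs (filled) and of choroid plexus cells (open) with at least 2 UMIs of the 39 cell cycle genes (left) or of 13 mitosis genes (right) after thinning to 1500 UMIs, with 1 point per library, exact 95% binomial intervals as bars and the age by colour. For the 39 genes, the 4 juvenile EC shares, 14.3% to 26.6%, lie above the 3 adult EC shares, 5.80% to 7.58%, while the choroid plexus shares of the 2 ages overlap.

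Genes of tip cells and sprouting had the next highest median of the lists. Of 27 tested, 21 rose and 1 fell (Ramp3, a receptor partner protein), 16 rises held, and the median log2 fold change was 1.89 (all genes, 20.8% higher and 20.1% lower, with 9.48% held higher and a median of -0.03). Apln, a peptide ligand made by tip cells, lies at chrX:48025146-48034853 (GRCm38, minus strand). It was at 184, 184, 227 and 203 CPM in the juvenile and 3.14, 2.52 and 2.52 CPM in the adult libraries (199 ± 21.9 against 2.83 ± 0.44, SD, n = 2), a log2 fold change of 6.25 ± 0.15 (edgeR, adjusted p = 1.10e-08). All 4 juvenile libraries were alike and far above the 3 adult libraries. At 1500 UMIs per cell, Apln was detected in 17.1, 16.2, 16.2 and 15.9% of juvenile and 0.181, 0.332 and 0.274% of adult ECs, against at most 0.848% of choroid plexus cells in the juvenile and 1.18 to 1.61% in the adult libraries, so that the adult EC shares are at background. Aplnr, its receptor, lies at chr2:85136225-85139923 and was at 364, 388, 415 and 399.6 CPM against 12.6, 19.5 and 21.8 CPM (392 ± 22 against 16.6 ± 5.69, SD, n = 2), a log2 fold change of 4.37 ± 0.15 (edgeR, adjusted p = 5.76e-08). It was detected in 38.7, 32.8, 35.7 and 36.1% of juvenile and 2.17, 3.51 and 3.15% of adult ECs at 1500 UMIs, and in at most 1.38% of the choroid plexus cells of any of these 7 libraries. Ligand and receptor were thus both high in juvenile ECs, and the receptor, at the higher level, was detected in more of the cells.

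Fscn1, the actin-bundling protein fascin of filopodia, was at 380.0, 389, 381 and 376 CPM in the juvenile and 36.8, 18.1 and 19.8 CPM in the adult libraries, with a log2 fold change of 4.05 ± 0.22 (edgeR, adjusted p = 2.00e-06). Angpt2, the angiopoietin that destabilises vessels, was at 40.1, 42.2, 38.1 and 34 CPM against 7.63, 12.1 and 9.98 CPM, a smaller difference of 1.89 ± 0.15 on the log2 scale (edgeR, adjusted p = 6.67e-06). Cxcr4, a chemokine receptor of migrating tip cells, was at 53, 49.4, 35.9 and 37.3 CPM against 2.69, 5.49 and 5.96 CPM and rose by 3.05. Esm1, a secreted proteoglycan used as a tip cell marker, was uneven among the juvenile libraries, at 32.8, 17.2, 2.15 and 11.6 CPM, with 0.898, 0 and 0 CPM in the adult libraries. Its call did not hold when near-identical libraries were summed (edgeR, adjusted p = 0.0636). The sulphotransferase gene Chst1 was called as well (3.61) and lost the call under the same summing (edgeR, adjusted p = 0.0786).

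The list of VEGF and angiopoietin receptors and ligands also holds Apln, Aplnr and Pdgfb, which belong to neither system. It shares these genes and Angpt2 with the tip cell list, so the rises of Apln, Aplnr and Angpt2 are counted in both. Of its 16 genes, 6 rose and 2 fell, 5 rises held, and the list's median on the log2 scale was 0.55 (all genes, 20.8% higher and 20.1% lower). This median was 0.16 under a stricter cell rule, with at least 5 UMIs of the EC genes and none of the immune or mural genes, and 0.12, with 5 genes higher and 3 lower, with the choroid plexus level subtracted. It was 0.21 without ECs with at least 3 UMIs of other types' markers, choroid plexus and red blood cell markers not counted. Kdr, the main signalling receptor for VEGF, was at 723, 691, 694 and 692 CPM in the juvenile and 329, 437 and 434 CPM in the adult libraries, a log2 fold change of 0.80 ± 0.11 (edgeR, adjusted p = 0.000322). Nrp2, a VEGF co-receptor, rose by 1.22. Tek, the angiopoietin receptor, and Ptprb, the phosphatase that acts on it, fell by 0.42 and 0.56 on the log2 scale, and neither fall held. Flt1, which the cell rule used, is given as a description only: it was at 990.0, 897, 1087 and 1079.7 CPM in juvenile and 1946, 2081 and 2076 CPM in adult ECs. Pecam1 was at 473, 467, 479 and 460.4 CPM against 546, 606 and 617 CPM, and Cldn5 at 6689, 6572, 8874 and 8901 CPM against 6334, 7196 and 7137 CPM.

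Basement membrane and collagen processing genes, which build the sheet of matrix around the vessel, were mostly higher in juvenile ECs. Of 37 tested, 21 rose and 6 fell, 17 rises and 4 falls held, and the median log2 fold change was 1.0 (all genes, 20.8% higher and 20.1% lower, median -0.03). Nid1, which links laminin to collagen IV, was at 166, 165, 172 and 159 CPM against 18, 21.7 and 21.8 CPM in the adult libraries (165 ± 0.327 against 19.9 ± 2.69, SD, n = 2), a log2 fold change of 2.98 ± 0.09 (edgeR, adjusted p = 3.29e-08). Both ages were tight, with every juvenile library far above every adult one. Col4a1, a collagen IV chain, rose by 1.31, Col18a1, which holds endostatin, by 2.46, Pxdn, the peroxidase that cross-links collagen IV, by 3.25, and Serpinh1, the collagen chaperone, by 1.46. Fkbp10 and Mfap2, which the list did not hold, were among the named genes with the largest rises, with Fkbp10, a collagen-folding isomerase, at 134, 133, 143 and 138 CPM against 6.29, 8.7 and 8.37 CPM (4.07 ± 0.11; edgeR, adjusted p = 1.47e-08), and Mfap2, a microfibril protein, at 158, 147, 146 and 144 CPM against 11.7, 10.9 and 7.8 CPM (3.93 ± 0.13; edgeR, adjusted p = 4.84e-08). Timp3, an inhibitor of matrix proteases, fell by 2.43 on the log2 scale, and P4ha2, a collagen hydroxylase subunit, by 2.87. Fibroblast markers were also higher in juvenile ECs, at 69.5 to 113 CPM in sum, and their part in the matrix genes was not tested. In mural cells Mfap2 was at 448, 390, 472 and 423 CPM in the juvenile and 19.2, 35.1 and 22.9 CPM in the adult libraries. Its age difference was not shown to differ from that of ECs (-0.29 ± 0.33; edgeR interaction, adjusted p = 0.73). That of Fkbp10 was larger in ECs (2.11 ± 0.33; edgeR interaction, adjusted p = 3.29e-05).

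Solute carriers of the barrier, a list that also holds exporters such as Slc40a1, were more often higher than lower in juvenile ECs. Of 40 solute carriers tested, 19 rose and 9 fell in juvenile ECs, 10 rises and 4 falls held, and the median log2 fold change was 0.30 (all genes, 20.8% higher and 20.1% lower, so that the falls are near the background). Slc1a4, a carrier of serine and other small amino acids, was among the named genes with the largest rises, at 135, 151, 118 and 118 CPM in the juvenile and 5.39, 2.06 and 2.52 CPM in the adult libraries, a log2 fold change of 5.57 ± 0.22 (edgeR, adjusted p = 2.62e-07). Slc38a5, a glutamine carrier, was at 940.0, 1027, 1157 and 1132 CPM against 242, 269 and 276 CPM (2.02 ± 0.11). The monocarboxylate carrier Slc16a1, which takes up lactate and ketone bodies, rose by 2.05, the nucleoside carrier Slc29a1 by 2.04 and the metal ion carrier Slc39a8 by 1.44. Mfsd2a, the carrier of docosahexaenoic acid that also restrains vesicle traffic, was at 579, 585, 756 and 738 CPM against 338, 304 and 295 CPM, a log2 fold change of 1.09 ± 0.13 (edgeR, adjusted p = 8.38e-05).

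The glucose carrier went the other way. Slc2a1 (GLUT1) was at 751, 691, 900.4 and 957 CPM in the juvenile and 2310.4, 1767 and 1721 CPM in the adult libraries, and fell by 1.23 on the log2 scale (SE 0.15; edgeR, adjusted p = 0.000118). Slco1a4, an organic anion carrier, was at 437, 390.4, 554 and 591 CPM against 1765, 1813 and 1792 CPM, a log2 fold change of -1.86 ± 0.14 (edgeR, adjusted p = 6.67e-06). The glutamate carrier Slc1a1 and the thiamine carrier Slc19a3 fell by 2.13 and 1.26. In each of Slc2a1 and Slco1a4 all 3 adult libraries stood above all 4 juvenile ones. Choroid plexus RNA would add 3.36% of the adult level of Slc2a1 and 2.58% of that of Slco1a4. For 1 of the 9 solute carriers that fell, it would reach over 50% of the adult level.

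Of 14 ABC transporters, 4 rose and 4 fell, 3 rises and 4 falls held, and the median log2 fold change was -0.27 (all genes, 20.8% higher and 20.1% lower). The median was -0.44 without Adult 1 and -0.09 without ECs with at least 2 cell cycle UMIs. Abcb1a, the drug pump P-glycoprotein, was at 281, 227, 264 and 271 CPM in the juvenile and 626, 728 and 728 CPM in the adult libraries, a log2 fold change of -1.41 ± 0.10 (edgeR, adjusted p = 4.14e-06), and the drug pump Abcg2 fell by 1.11. Abca1 and Abcg1, which export cholesterol, rose by 2.10 and 1.32, with Abca1 at 147, 159, 143 and 134 CPM against 33.2, 32.6 and 35.9 CPM. For Abca2, which also fell (-1.45), the level computed from choroid plexus cells, which also held oligodendrocyte RNA, would reach 80.7% of the adult EC level. The call of Abca2 was lost when that was subtracted, under the stricter cell rule and without ECs with other types' marker UMIs.

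Of 28 genes of vesicular transport and its receptors, 10 rose and 9 fell (median -0.10; all genes, 20.8% higher and 20.1% lower), and 5 rises and 4 falls held. For 3 of the 9 that fell, Cd36, Lrp1 and Pacsin3, choroid plexus RNA would come to 65.2%, 80.1% and 80.1% of the adult level. Tfrc, the transferrin receptor that carries iron into the brain, was at 684, 828, 747 and 726 CPM in the juvenile and 119, 174 and 174 CPM in the adult libraries (746 ± 13.4 against 147 ± 38.9, SD, n = 2), a log2 fold change of 2.25 ± 0.15 (edgeR, adjusted p = 2.15e-06). It was detected in 54.8, 57.5, 56 and 55.5% of juvenile and 15, 23.2 and 23.5% of adult ECs at 1500 UMIs, against 4.43, 6.21, 4.12 and 3.9% and 2.89, 3.21 and 0.888% of choroid plexus cells. At this depth the share follows the level and is no separate sign of more cells with the transcript. Plvap, which forms the diaphragm of fenestrae and caveolae and marks leaky vessels, was at 109, 65.1, 6.19 and 17.8 CPM against 0.898, 0.801 and 1.15 CPM. It was high in Juvenile 1 and 2 and low in Juvenile 3 and 4, the pools with Y-linked RNA, and the part of sex in this was not tested. Its call (5.6 ± 1.5; edgeR, adjusted p = 0.0279) was lost without Adult 1 (adjusted p = 0.0804) and with near-identical libraries summed (adjusted p = 0.1). Gpihbp1, which anchors lipoprotein lipase in capillaries, had the same uneven spread, at 31.9, 26.2, 7.53 and 11.1 CPM against 0, 0.343 and 0.344 CPM, and its call held. Cav1, the coat protein of caveolae, gave a log2 fold change of -0.16 ± 0.08 (edgeR, adjusted p = 0.134), Igf1r, a receptor for insulin-like growth factors, fell by 1.17, and Lrp8, a lipoprotein receptor, rose by 1.23.

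Junction genes showed no common direction, with 9 of 29 higher and 7 lower and a median log2 fold change of 0.03 (all genes, 20.8% higher and 20.1% lower). Of these 6 rises and 3 falls held, and with the choroid plexus level subtracted 7 were higher and 11 lower. Ocln, occludin of the tight junction, fell by 0.78 on the log2 scale, while Tjp1, the scaffold ZO-1, differed by -0.07 ± 0.09 (edgeR, adjusted p = 0.559) and Cdh5, the cadherin of EC contacts, by 0.25 ± 0.10 (edgeR, adjusted p = 0.064), neither past the threshold. Among members with at least 20 CPM in the higher of the ages, the 4 genes with the largest rises were Pvrl2, the adhesion molecule nectin-2 (2.74), Cdh2, N-cadherin (2.23), Ildr2 (1.72) and Gja4, the gap junction protein connexin 37, which was at 275, 176, 146 and 151 CPM against 13, 28.9 and 25.7 CPM (2.95 ± 0.33; edgeR, adjusted p = 0.000422).

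**Figure D4:**
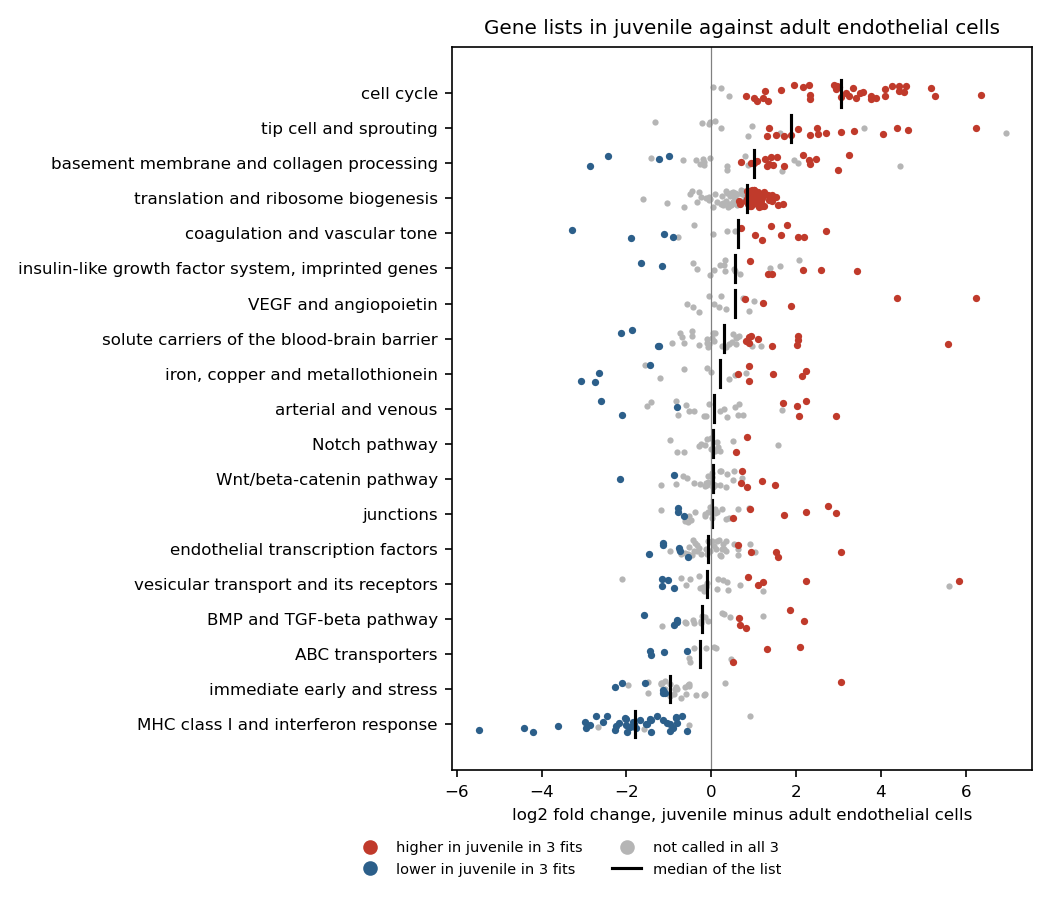
Log2 fold change (juvenile minus adult ECs) of each tested member of each gene list, with 1 point per gene, a bar at the list's median, and colour for members whose call held (higher or lower in juvenile ECs). Cell cycle genes (36 of 39 held higher) and MHC class I and interferon genes (38 of 42 held lower) stand at the ends, and junctions, Wnt and Notch genes have medians near 0.

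Signalling pathways of the growing vessel gave mixed counts. In the Wnt/beta-catenin pathway, 11 of 31 genes rose and 5 fell, 5 rises and 2 falls held, and the median was 0.03 on the log2 scale (all genes, 20.8% higher and 20.1% lower). The excess of rises was lost under the stricter cell rule (6 higher and 6 lower), without ECs with other types' marker UMIs (6 and 7) and with the choroid plexus level subtracted (6 and 9). Reck, a co-receptor for brain Wnt ligands, was at 27, 15.2, 13.9 and 14.6 CPM against 71.8, 75.5 and 82.3 CPM (-2.15 ± 0.21; edgeR, adjusted p = 5.83e-05), and Lef1, the nuclear partner of beta-catenin, fell by 0.87. Ppard, a nuclear receptor, rose by 1.19, and Tcf7l1, a relative of Lef1, by 1.51. The falls of Axin2, a feedback target of the pathway (-0.82), and of Ctnnb1, beta-catenin itself (-1.19), did not hold with near-identical libraries summed (edgeR, adjusted p = 0.122 and 0.138).

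In the Notch pathway, 4 of 18 genes rose and 2 fell (median 0.04; all genes, 20.8% higher and 20.1% lower; with the choroid plexus level subtracted, 3 and 4), and 2 rises held, Mfng, a glycosyltransferase that modifies Notch (0.85), and Adam10, the protease that cleaves it (0.58). Adam10 lost its call without ECs with other types' marker UMIs. Hes1, a Notch target, was at 920.3, 957, 829 and 769 CPM in the juvenile and 854, 1848 and 1854 CPM in the adult libraries. Adult 1 stood among the juvenile values, and the call was lost with near-identical libraries summed (edgeR, adjusted p = 0.331). The BMP and TGF-beta pathway had 6 of 24 genes higher and 9 lower, with a median of -0.22 (all genes, 20.8% higher and 20.1% lower), and 5 rises and 4 falls held. Its median was -0.13 without Juvenile 3 and -0.08 without Juvenile 3 and 4. The pathway had 6 higher and 5 lower without ECs with at least 2 cell cycle UMIs, 4 higher and 10 lower under the stricter cell rule, and 3 and 10 without ECs with other types' marker UMIs. Bambi, a decoy receptor that dampens BMP and TGF-beta signals, rose by 1.86 and Bmp2, a ligand, by 2.20, while the receptor Bmpr2 fell by 1.58, the receptor Acvrl1 by 0.80 and the target Id1 by 0.87.

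Of all the lists, that of antigen presentation and the interferon response had the most falls. Of the 42 genes tested, 41 were lower in juvenile ECs and 38 of these held, with a median log2 fold change of -1.79 (all genes, 20.1% lower and a median of -0.03). Ifit1, an interferon-induced protein that binds viral RNA, lies at chr19:34640871-34650009 (GRCm38, plus strand). It was at 6.33, 4.89, 6.32 and 5.72 CPM in the juvenile and 151, 111 and 121 CPM in the adult libraries (5.82 ± 0.289 against 134 ± 25.1, SD, n = 2), a log2 fold change of -4.42 ± 0.14 (edgeR, adjusted p = 3.29e-08). Ifit3, its partner, was at 2.81, 1.03, 2.29 and 2.41 CPM against 91.6, 103 and 101 CPM, a log2 fold change of -5.48 ± 0.16 (edgeR, adjusted p = 2.79e-08). At 1500 UMIs, Ifit1 was detected in 0.806, 0.674, 1.1 and 1.11% of juvenile and 18.5, 13.2 and 15% of adult ECs, against 0, 0, 0.363 and 0.23% and 0.965, 0.988 and 0% of choroid plexus cells. Most adult ECs had no UMI of it at this depth, which does not show that they lacked its RNA. Iigp1, an immunity-related GTPase, was at 6.1, 3.86, 1.48 and 3.61 CPM against 56.6, 71.5 and 66 CPM (-4.21 ± 0.29; edgeR, adjusted p = 1.20e-05), and Rsad2, the antiviral enzyme viperin, which the list did not hold, at 6.33, 1.54, 1.88 and 2.26 CPM against 71.4, 65.4 and 66.3 CPM (-4.56 ± 0.31; edgeR, adjusted p = 1.32e-05). In all 4 genes every adult library stood above every juvenile one, a separation that the choice of these genes required.

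MHC class I displays peptides to T cells. B2m, its light chain, was at 846, 808, 821 and 864 CPM in the juvenile and 2311, 2537 and 2426 CPM in the adult libraries, a log2 fold change of -1.54 ± 0.09 (edgeR, adjusted p = 1.36e-06), and the heavy chains H2-K1 and H2-D1 fell by 2.28 and 1.27 on the log2 scale. Irf7, a transcription factor of the interferon response, fell by 2.94 and the ubiquitin-like modifier Isg15 by 2.73. Among the surface proteins Ly6a (Sca-1) and Ly6c1, both abundant in brain ECs, the falls were 2.56 and 1.43. Ifitm1, which restricts viral entry, was the one member called higher (0.92), and this did not hold (edgeR with near-identical libraries summed, adjusted p = 0.0602). The H2-Q genes are near-identical copies, and the Ly6 genes close relatives, whose reads the counting could have split, so that their single values are uncertain.

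Lymphocyte markers were also higher in every adult library, at 36.4 to 126 CPM against 2.88 to 23.3, while microglial markers were highest in Adult 1, at 767 CPM, and overlapped between the ages in the other libraries. Without Adult 1, the library with most immune markers, 41 of 42 genes of this list were lower, under the stricter cell rule 40 of 41, without ECs with other types' marker UMIs (choroid plexus and red blood cell markers not counted) 38 of 39, and after subtraction of the choroid plexus level 39 of 42. Choroid plexus RNA would reach over 50% of the adult level in 1 of the 41 genes, H2-Q6, and 1.28% for Ifit1.

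The promoters of both Ifit genes are shown because the genes moved together. Capitals mark 2 copies of GAAA on one strand with any 2 bases between them, read on either strand, a core form of the interferon-stimulated response element that STAT and IRF factors bind, searched after the values were seen. The 150 bases before the start are from RefSeq (GRCm38.p6) for Ifit1 (chr19:34640739-34640888, plus strand) and Ifit3 (chr19:34583379-34583528, plus strand).
Ifit1: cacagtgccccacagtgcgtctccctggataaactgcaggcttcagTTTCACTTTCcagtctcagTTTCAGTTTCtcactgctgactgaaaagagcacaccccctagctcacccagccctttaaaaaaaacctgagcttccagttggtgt
Ifit3: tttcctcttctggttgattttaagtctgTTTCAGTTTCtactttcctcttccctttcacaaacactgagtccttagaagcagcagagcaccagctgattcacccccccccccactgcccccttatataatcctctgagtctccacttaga
Ifit1 has the letters at 2 places and Ifit3 at 1. Oasl2, a further fallen gene, has no match in its 150 bases. Of the 41 genes that fell, 34 had an entry, and 14 of these (41.2%) held the letters between 250 bases before and 50 after the start, against 3.99% of all 27025 genes.

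Some of the genes with the largest falls lay outside these lists. Xdh, xanthine dehydrogenase of purine breakdown, was at 1.41, 0.772, 0.403 and 0.301 CPM in the juvenile and 79.5, 41.1 and 41.5 CPM in the adult libraries, a log2 fold change of -6.31 ± 0.42 (edgeR, adjusted p = 1.32e-05). Degs2, a sphingolipid hydroxylase, was at 15.7, 12.9, 12.9 and 16.1 CPM against 257, 224 and 218 CPM (-4.01 ± 0.11; edgeR, adjusted p = 1.47e-08). Choroid plexus RNA would add 1.77% and 1.69% of their adult levels. The predicted gene Gm9946 was at 0.469, 1.03, 2.29 and 1.5 CPM against 51.6, 51.8 and 46.4 CPM. For Cox8b, a cytochrome oxidase subunit (-5.89), Stmn4, a tubulin-binding protein (-4.20), and Rdh5, a retinol dehydrogenase (-3.98), the same computation gave 108%, 157% and 115%. The calls of Cox8b and Stmn4 were lost when it was subtracted. Rdh5 could be tested under 19 of the 20 alternatives and kept its call in those. It was also lower in juvenile microglia (9.55 to 18.8 CPM against 65.2 to 177) and juvenile mural cells (49.6 to 102 CPM against 131.5 to 291). Over the alternatives, subtraction included, the log2 fold change of Cox8b ran from -7.5 to -4.19 and that of Stmn4 from -4.48 to -0.71.

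Growth genes of the insulin-like growth factor system and imprinted genes were higher in 10 of 22 and lower in 3, with 6 rises and 2 falls held and a median log2 fold change of 0.55 (all genes, 20.8% higher and 20.1% lower). Over the alternatives this median ran from 0.54 to 1.0. Igfbp4, a binding protein of these growth factors, was at 562, 501, 368 and 385 CPM in the juvenile and 19.8, 54 and 46.2 CPM in the adult libraries, a log2 fold change of 3.43 ± 0.33 (edgeR, adjusted p = 0.000179), and all juvenile libraries stood above all adult ones. Plagl1, an imprinted transcription factor, rose by 2.60 and Gnas, an imprinted G protein gene, fell by 1.65. For Meg3, an imprinted non-coding RNA (2.08), choroid plexus RNA would reach 70.5% of the juvenile level, and its call was lost under 8 alternatives. Fabp7, a fatty acid binding protein better known from astroglia, was at 115, 103, 42.1 and 63.3 CPM against 10.8, 3.66 and 3.67 CPM (4.07 ± 0.56; edgeR, adjusted p = 0.00136). The astrocyte markers in sum were lower in juvenile ECs. Fabp7 was also higher at the younger age in other cells: microglia had 135, 199, 104 and 74.1 CPM in the juvenile and 19.6, 0 and 0 CPM in the adult libraries, and mural cells 91.7, 142, 445 and 63.9 CPM against 24.7, 15 and 5.72 CPM. The differences of log2 fold changes, -0.47 ± 0.82 and 0.28 ± 2.56, were not past the threshold (edgeR, adjusted p = 0.769 and 0.983).

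Of 48 endothelial transcription factors, 12 rose and 11 fell (median -0.06), near the shares of all genes (20.8% and 20.1%), and 5 rises and 6 falls held. The balance moved to 6 higher and 18 lower without ECs with other types' marker UMIs, and to 8 and 18 with the choroid plexus level subtracted. Myc, which drives growth and ribosome synthesis, rose by 3.06, Sox4 by 1.53 and the chromatin protein Hmgb2 by 1.58, the last of which lost its call when ECs with cell cycle UMIs were left out. Klf2 and Klf4, the factors induced by blood flow, both fell by 1.13, and Klf9, a target of glucocorticoids, by 1.46. Translation was the largest list, with 84 of 105 genes higher and 2 lower, a median log2 fold change of 0.84 and 55 rises held (all genes, 20.8% higher and 20.1% lower). It holds the cytosolic ribosomal protein genes and, through their names, a few S6 kinase genes (Rps6ka) that are no part of the ribosome. Rplp0, a protein of the ribosomal stalk, rose by 1.69 and Rps7 by 1.57. Rpl23a was called lower (-1.60) and lost the call with near-identical libraries summed (edgeR, adjusted p = 0.0683). Ribosomal protein genes have many processed copies in the genome, so reads could have been split among them.

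Arterial and venous markers had 7 of 26 higher and 7 lower, near the shares of all genes (20.8% and 20.1%), and 5 rises and 3 falls held. Without ECs with other types' marker UMIs, 12 were higher and 6 lower. Alpl, a phosphatase of capillaries and arterioles, fell by 2.61 on the log2 scale, while Gja5, the arterial connexin 40, rose by 2.06 and Tmsb10, an actin-binding peptide, by 1.70. In the group of coagulation and vascular tone, 9 of 18 rose and 6 fell, 9 rises and 4 falls held, and the median was 0.63 (all genes, 20.8% higher and 20.1% lower). Tfpi, the inhibitor of tissue factor, rose by 1.65 and Ptgis, prostacyclin synthase, by 2.04, whereas Thbd, thrombomodulin, fell by 1.88 and Plat, tissue plasminogen activator, by 1.11. Ptgds, prostaglandin D synthase, also fell (-3.28), and choroid plexus RNA would come to 112% of its adult level.

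Of 18 iron and metal genes, 9 were higher and 6 lower, of which 6 rises and 4 falls held and 3 were lower under the stricter cell rule or with the choroid plexus level subtracted (all genes, 20.8% higher and 20.1% lower). Besides Tfrc, the rises included Fth1, the ferritin heavy chain that stores iron (2.14), and Slc40a1, ferroportin, which exports it (0.89). The falls were led by the metallothioneins Mt1 (-2.74) and Mt2 (-3.06), which bind zinc and copper, and by Cp, the ferroxidase ceruloplasmin (-2.64). Trf, transferrin, and Mt3, a further metallothionein, fell too (-1.46 and -1.56). The level computed from choroid plexus cells, which also held oligodendrocyte RNA, came to 131% and 106% of their adult levels. The list's median, 0.21, was 0.11 without Adult 2 and ran up to 0.65 over the alternatives.

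Immediate early and stress genes, which respond within minutes to stimuli and damage, were lower in juvenile ECs in 16 of 31 and higher in 1, Myc, with a median log2 fold change of -0.97 (all genes, 20.1% lower and a median of -0.03). Of the 16 falls 6 held, and 10 genes were lower with the replicate block. Hspa1a, an inducible heat shock protein with a near-identical copy in Hspa1b, was at 836, 720.5, 492 and 539.9 CPM in the juvenile and 2498, 3418 and 3402 CPM in the adult libraries, a log2 fold change of -2.26 ± 0.20 (edgeR, adjusted p = 2.14e-05). Fos, the textbook immediate early gene, was at 708, 681, 518 and 534 CPM against 415, 1174 and 1217 CPM. Adult 1 lay below all 4 juvenile libraries and Adult 2 and 3 above them, and the log2 fold change of -0.62 ± 0.36 was not past the threshold with all libraries (edgeR, adjusted p = 0.207) and was without Adult 1 (edgeR, adjusted p = 0.000429). Without Adult 1, 26 of the 31 genes were lower in juvenile ECs, and without Juvenile 3 and 4, 11 were. Haemoglobin genes, which mark red blood cell RNA, gave 1 lower of 6 (Hbb-y), and Xist, the one gene of the sex chromosome list tested, differed by 0.11 ± 0.40 (edgeR, adjusted p = 0.858) between the ages.

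Lists whose members went both ways depended on the setting. Over the 20 alternatives, vesicular transport had 5 to 10 higher and 4 to 11 lower, with medians from -0.22 to 0.11. Junction genes had 6 to 10 higher and 3 to 11 lower, with medians from -0.19 to 0.07, and Notch genes 2 to 5 higher and 0 to 4 lower, with medians from -0.14 to 0.21. For Wnt/beta-catenin genes there were 5 to 11 higher and 2 to 9 lower, with medians from -0.23 to 0.08, and for BMP and TGF-beta genes 3 to 7 higher and 4 to 10 lower, with medians from -0.52 to -0.05. The transcription factors gave 5 to 16 higher and 6 to 18 lower, with medians from -0.25 to 0.05, and arterial and venous markers 5 to 12 higher and 2 to 8 lower, with medians from -0.17 to 0.38. The medians of these lists took both signs, apart from that of the BMP and TGF-beta genes. The cell cycle list had 1 to 37 higher and 0 to 1 lower, with medians from -0.14 to 3.65. It lost its direction without ECs with at least 2 cell cycle UMIs, a step that uses the same genes. Some other lists with one main direction kept it in each setting. Tip cell genes had 17 to 22 higher and 0 to 3 lower, with medians from 1.84 to 2.07, and basement membrane genes 17 to 23 higher and 4 to 8 lower, with medians from 0.76 to 1.10. Translation genes had 55 to 86 higher and 0 to 5 lower, with medians from 0.69 to 0.93, and interferon genes 0 to 1 higher and 38 to 41 lower, with medians from -1.95 to -1.63.

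The age difference of ECs was compared with that of neighbouring cell types in the same libraries. Microglia, the brain's resident macrophages, gave 4589 juvenile and 1514 adult cells. Mural cells, the pericytes and smooth muscle of the vessel wall, gave 573 and 372. Neither class was pure. In mural cells, fibroblast markers summed to 3465 to 4702 CPM in the juvenile and 386 to 557 CPM in the adult libraries. In microglia, perivascular macrophage markers summed to 2039 to 2502 CPM against 2476 to 4332 CPM. A change in the mixture was not separated from a change within a cell type. The difference of log2 fold changes was tested as an interaction with the library as a block. It was past the threshold in either direction for 1748 of 13916 genes against microglia (12.6%) and for 1015 of 11998 against mural cells (8.46%). With near-identical libraries summed these were 437 and 652, without Adult 3 the first was 1112, and without Adult 1 or Adult 2 the second was 630 or 636. Cell cycle genes were among them in 4 of 39 against microglia, near the share of all genes, and in 1 of 39 against mural cells, where the test had little power. Against microglia, the lists with the highest shares were tip cell genes (17 of 27), interferon genes (23 of 42), VEGF and angiopoietin genes (8 of 16) and solute carriers (19 of 40). The VEGF and angiopoietin list shares Apln, Aplnr, Angpt2 and Pdgfb with the tip cell list. Against mural cells they were coagulation (10 of 18), interferon genes (21 of 42) and the growth factor and imprinted genes (9 of 22). All these counts take both signs, so they do not say in which cell type a change was larger.

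In microglia, Apln was at 3.6, 3.42, 3.55 and 4.94 CPM in the juvenile and 2.87, 0 and 0.786 CPM in the adult libraries, low at both ages, and the rise in ECs was larger by 4.90 ± 0.77 on the log2 scale (edgeR, adjusted p = 0.000913; without Adult 1, 0.294; near-identical libraries summed, 0.0174). For Slc1a4 the rise in ECs exceeded that of microglia by 4.12 ± 0.37 (edgeR, adjusted p = 9.53e-06) and the change of mural cells, at 12.6, 18.9, 11.5 and 33.1 CPM against 24.7, 45.1 and 5.72 CPM, by 5.85 ± 0.78 (edgeR, adjusted p = 0.000124). Fscn1 was abundant in microglia at both ages, 314, 265, 347 and 377 CPM against 278, 346 and 337 CPM, and the excess in ECs was 4.20 ± 0.32 (edgeR, adjusted p = 9.17e-05). With all libraries, the rise of each of these 3 genes was thus larger in ECs than in microglia. These genes and those below were picked for a large change in ECs and then for the largest differences from the other cells. That choice favours such an outcome, so it is given as a description.

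The fall of Ifit3 was also larger in ECs. Microglia had 8.09, 7.48, 21.5 and 16.8 CPM in the juvenile and 18.4, 46.2 and 23.6 CPM in the adult libraries, and the difference of log2 fold changes was -4.39 ± 0.37 (edgeR, adjusted p = 1.63e-05). In mural cells Ifit3 was at 9.89, 7.34, 11.5 and 9.46 CPM and 8.23, 10 and 11.4 CPM, with a difference of -5.52 ± 0.54 (edgeR, adjusted p = 7.66e-09). The corresponding differences of Ifit1 were -3.86 ± 0.35 against microglia and -3.77 ± 0.87 against mural cells (edgeR, adjusted p = 9.05e-06 and 0.00419), that of Iigp1 against mural cells -5.21 ± 0.52 (edgeR, adjusted p = 8.81e-09) and that of Xdh against microglia -4.11 ± 0.85 (edgeR, adjusted p = 0.0074; near-identical libraries summed, 0.07). Against mural cells, Apln (4.72 ± 2.43; edgeR, adjusted p = 0.279) and Degs2 (3.79 ± 2.01; edgeR, adjusted p = 0.318) gave large differences with wide errors that did not pass the threshold, and mural cells held few UMIs of either.

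**Figure D5:**
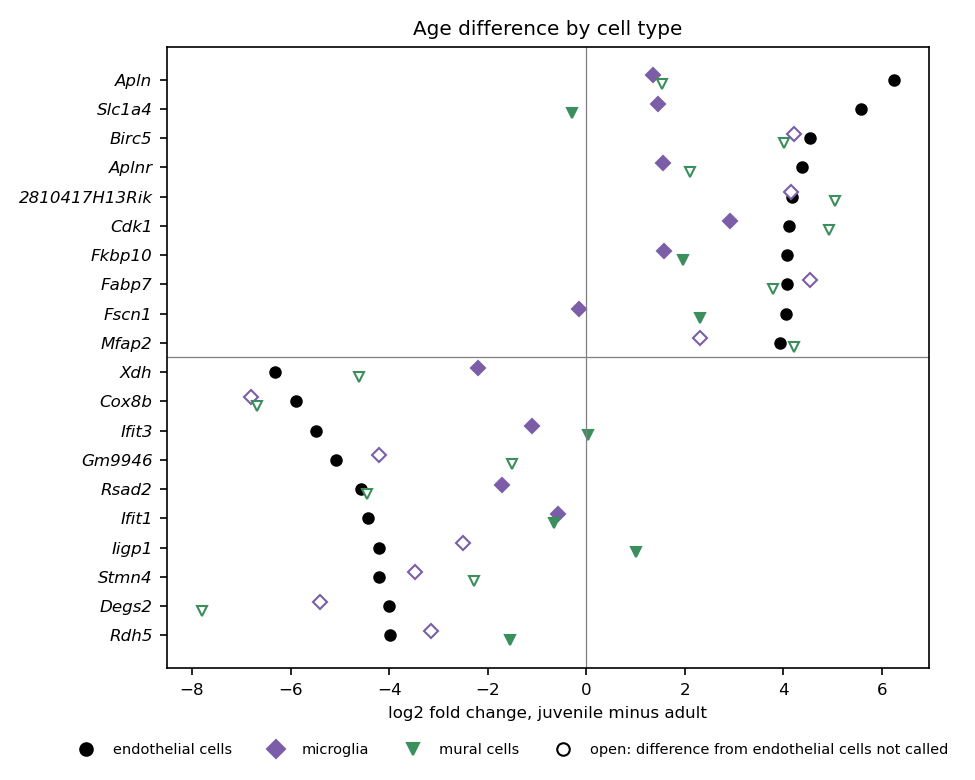
Age difference (log2 fold change, juvenile minus adult, edgeR) of named genes in ECs, microglia and mural cells, where the microglia and mural values are the EC value minus the tested difference, and open symbols mark a difference from ECs that was not past the threshold. Ifit3 and Ifit1 lie far below 0 in ECs and nearer to 0 in both other cell types.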

How the data were processed

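Myelin-depleted cells of 7 libraries (4 Juvenile, 3 Adult) were analysed. The authors deposited raw UMI counts per gene and cell barcode, aligned to mm10. The submitters' processing notes name bcl2fastq 2.19.1.403, UMI-tools 0.5.3, STAR 2.5.3a and featureCounts 1.6.1. The study's methods give other versions of the last 3 tools, which of these made the tables is not known, and the gene annotation is not given in the sources used here. Library totals ranged from 15755504 to 23425535 UMIs, and 26921 genes were measured. No doublet caller was run, since the rule limits mural and immune UMIs. The precision for a gene is set by its UMIs in each library, and intervals cover counting error only.

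UMIs of ECs were summed per library and tested with edgeR 4.0.16 in R 4.3.3 (quasi-likelihood, robust, TMM, filterByExpr, Benjamini-Hochberg over all genes), without a replicate block. CPM values of genes in ECs use TMM-scaled library sizes, and those of marker sums, Ttr and other cell types unscaled ones. Choroid plexus percentages set an unscaled against a scaled level. The comparison with microglia (C1qa and C1qb at least 3 UMIs) and mural cells (Rgs5 and Vtn at least 3 UMIs), each with at most 2 UMIs of the other rules' genes, added the library as a block. Shares of cells were compared by exact permutation over libraries in Python 3.11.15 (scipy 1.17.1). Choroid plexus cells had at least 3 UMIs of Folr1 and Enpp2. DESeq2 1.42.0, other scalings, filters and cell rules, and leaving out each library were tried as alternatives. On simulated counts with a log2 change of 1, the test recovered 83.1% of changed genes for juvenile against adult ECs (13061 genes, 7.95% of the calls false), 28.6% for the difference from microglia (13285 genes) and 8.72% for that from mural cells (11323 genes), so that an age difference not shown to differ between cell types says little. The simulated libraries were independent, with a fixed dispersion and few changed genes, unlike the near-identical pairs here. Recovery in these data may be lower and the false share may differ.

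Named genes were the 10 with the largest change in each direction whose call held, at 50 CPM or more in the higher of the ages, no overlap between the ages, and no place in the cell rule, the mitochondrial, haemoglobin and sex-linked genes or another type's markers. From each list up to 4 members with the largest change and at least 20 CPM were added, and for the other cell types the 3 largest differences in each direction. Further members named in the text were chosen after their values were seen. The members and lists were chosen with earlier results of these data known. Sequences came from RefSeq promoters (GRCm38.p6), and gene positions from an annotation of GRCm38. A few genes of the lists are not reported here by name.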

Additional observations from a re-analysis of the deposited data

Results flagged for a closer look

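In 4 of 88 groups of juvenile libraries tested, 1 library stood apart from the other 3 by Dixon's test at the 95% level, where chance gives about 1 in 20. These were Cox8b in Juvenile 3 (6.05 CPM, the others 0.469, 1.29 and 1.35 CPM), Rsad2 in Juvenile 1 (6.33 CPM, the others 1.54, 1.88 and 2.26 CPM), Ccnb2 in Juvenile 1 (54.4 CPM, the others 33.5, 31.3 and 31.1 CPM) and Reck in Juvenile 1 (27.0 CPM, the others 15.2, 13.9 and 14.6 CPM). In each of them the juvenile libraries remained apart from the adult ones, which the choice of Cox8b and Rsad2 required.

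For some named genes the age difference itself differed between ECs and another cell type of the same libraries (edgeR interaction test). On the log2 scale the age difference of ECs exceeded that of microglia by 4.90 for Apln, 4.12 for Slc1a4 and 4.20 for Fscn1, and was below it by -4.11 for Xdh, -4.39 for Ifit3 and -3.86 for Ifit1. Against mural cells the difference was 5.85 for Slc1a4, -5.52 for Ifit3, -3.76 for Ifit1 and -5.21 for Iigp1. These genes had been picked for a large change in ECs, which favours such differences. What lies behind these differences was not tested.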

How the results depend on the processing

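Of the 86 named genes with a test, 66 kept direction and side of the threshold under each alternative that could be computed for them (up to 20). A call was lost under at least 1 alternative for 15 genes, namely Cox8b, Stmn4, Chst1, Nrarp, Rpl23a, Ctnnb1, Hes1, Tgfb2, Abca2, Plvap, Dcn, Meg3, Hmgb2, Hspa1b and Adam10, and 1 gene, Xist, gained one. The cause was not tested. Genes called between the ages (5422) were 4117 to 5601 with 1 library left out, 2440 with near-identical libraries summed, 3207 with cells thinned to 1500 UMIs, 3472 without ECs with at least 2 cell cycle UMIs and 3366 without ECs with at least 3 UMIs of other types' markers (choroid plexus and red blood cell markers not counted), where fewer samples, UMIs or cells were tested. DESeq2's Wald test called 4898. After choroid plexus subtraction 4640 genes were called, 3756 of them in the same direction as without it, and 177 of the 5422 turned sign. Differences from microglia (1748) numbered 1112 to 1658 with 1 library left out and 437 with pairs summed, and those from mural cells (1015) 630 to 922 and 652. The difference in cycling share, 12.5 points, ran from 9.16 to 16.9 over settings at a fixed depth with the list (10.0 to 14.1 with 1 library left out), was 5.82 with 13 mitosis genes and 38.4 without thinning.

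Juvenile and adult replicates share only a number: the correlations of their deviations were 0.019, -0.13 and 0.095 for numbers 1 to 3, and with the replicate block 4572 genes were called. Direction turned for 5 of the 86 named genes, none of them called with all libraries. Over the fits with 1 library left out, log2 fold changes ran from -0.13 to 0.33 for Xist, from -1.66 to 0.85 for Hba-a2, from -1.44 to 1.07 for Hba-a1, from -1.37 to 0.98 for Hbb-bs and from -1.01 to 0.61 for Hbb-bt. Xist gave -0.13 without Juvenile 1, -0.10 without Juvenile 2, -0.25 under the stricter cell rule, -0.035 with cells thinned to 1500 UMIs, -0.20 without ECs with at least 2 cell cycle UMIs, -0.10 without ECs with a mitosis UMI, -0.45 without ECs with other types' marker UMIs, -0.038 with the choroid plexus level subtracted. Of the haemoglobins, values were without Adult 1 0.85 (Hba-a2), 1.07 (Hba-a1), 0.98 (Hbb-bs), 0.61 (Hbb-bt); with the replicate block 0.068 (Hba-a2), 0.26 (Hba-a1), 0.26 (Hbb-bs), 0.19 (Hbb-bt); under the stricter cell rule 4.21 (Hba-a2), 4.09 (Hba-a1), 2.83 (Hbb-bs), 3.94 (Hbb-bt); without ECs with at least 2 cell cycle UMIs 0.036 (Hba-a2), 0.28 (Hba-a1), 0.50 (Hbb-bt); without ECs with other types' marker UMIs 2.34 (Hba-a2), 2.28 (Hba-a1), 1.05 (Hbb-bs), 2.44 (Hbb-bt); with the choroid plexus level subtracted 2.62 (Hba-a2), 4.32 (Hba-a1), 3.31 (Hbb-bs), 2.90 (Hbb-bt); with cells thinned to 1500 UMIs 0.23 (Hbb-bt); without ECs with a mitosis UMI 0.24 (Hbb-bt). Leaving out ECs with at least 3 UMIs of all other types' markers, choroid plexus included, left no cell in any library and was not run. The alternatives on mitosis UMIs, other types' markers without choroid plexus and red blood cell genes, choroid subtraction and the pools with male tissue were chosen after the data were seen. Depth limits genes of a few CPM, such as Mki67 or Plvap in adult ECs, where 1 library sum holds few UMIs.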
